A study of Mus musculus with 6 samples.

Results

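The genes described here are 10 that encode inflammatory chemokines and cytokines made by endothelial cells: Cxcl1, Cxcl2, Cxcl10, Cxcl16, Ccl2, Ccl7, Cx3cl1, Csf1, Il6 and Lif. They were taken by symbol from the deposited table of 17067 genes, which listed all 10, and 9 of them passed the filter on low counts. The samples were primary endothelial cells of the aorta from wild-type C57BL/6 mice that had carried an osmotic pump from 8 weeks of age for 14 days. The pump released angiotensin II (AngII), the peptide hormone that constricts vessels and raises blood pressure, at 1000 ng per kg per minute in 3 samples and saline in the other 3. Pieces of aorta, 2 mm long, were afterwards cultured on Matrigel-coated plates with 20% fetal calf serum, heparin and endothelial growth factor, and cells began to leave them after 5 to 7 days, so all 6 samples had been in culture before RNA was taken.

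Chemokines are small secreted proteins that bind receptors on leukocytes and draw them to a vessel wall. Those with the CXC motif that bind CXCR2 act mainly on neutrophils, ligands of CCR2 act on monocytes, and ligands of CXCR3 act on activated T cells. In endothelial cells many chemokine genes are switched on by NF-kB, a family of transcription factors that inflammatory cytokines and microbial products activate, and some also by interferons. CSF1 keeps macrophages alive, and IL-6 and LIF belong to a cytokine family that signals through the shared receptor subunit gp130.

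Total counts ran between 22646065 and 25141992 in the AngII samples and between 21154724 and 23004780 in the saline samples. Most endothelial markers were abundant, with Pecam1 at 1919 ± 93.4 CPM (counts per 1000000 counts with TMM scaling, mean ± SD, n = 3) in AngII samples and 1846 ± 19.3 CPM in saline samples. Vwf was low, at 8.12 ± 1.36 CPM in AngII samples and 10.7 ± 0.140 CPM in saline samples. By the edgeR test described below, 3 of 10 were called higher and 5 lower, against 29.0% and 28.6% of all tested genes. Summed over 10 of 11 endothelial markers listed, the level ran between 5592 and 6118 CPM in AngII samples and between 5728 and 5788 CPM in saline samples. Leukocyte markers were low. Ptprc, which encodes the pan-leukocyte protein CD45, had 0, 0 and 1 counts in AngII replicates 1 to 3 and 0, 1 and 3 counts in saline replicates 1 to 3, and 9 of 13 macrophage markers listed summed to between 4.08 and 4.75 CPM in AngII samples and between 3.72 and 4.25 CPM in saline samples. Markers of other wall cells were low, but their sums differed between the groups. The 6 of 7 fibroblast markers listed summed to between 13.1 and 15.0 CPM in AngII samples and between 6.62 and 7.95 CPM in saline samples. Nearly all of it was Col3a1 (mean 8.27 CPM in AngII samples, 3.43 CPM in saline samples) and Pdgfra (5.55 and 3.50 CPM). Col1a1, Col1a2, Dcn and Lum had at most 6 counts in any sample. The 8 smooth muscle and pericyte markers summed to between 7.56 and 9.21 CPM in AngII samples and between 16.2 and 17.8 CPM in saline samples. Much of this difference was Notch3, at a mean of 2.29 CPM in AngII samples and 8.97 CPM in saline samples. Des (0.152 and 1.59 CPM) and Myh11 (0.183 and 0.958 CPM) were lower too, but Pdgfrb (5.64 and 5.01 CPM) was not. Acta2, Tagln, Cnn1 and Rgs5 had at most 8 counts in any sample. The 7 mesothelial and epithelial markers, mostly Msln and Krt18, summed to between 2.31 and 2.90 CPM in AngII samples and between 4.57 and 5.29 CPM in saline samples. For 5 of 6 neutrophil markers the sums were between 7.20 and 7.48 CPM in AngII samples and between 10.8 and 12.1 CPM in saline samples, nearly all of it Ly6g and Cxcr2, and for 2 of 6 lymphocyte markers the sums were at most 0.133 CPM in AngII samples and 0.136 CPM in saline samples. No marker listed was at 0 in all 6 samples. Only 14 of the 17067 genes were, so this says little about the cells. The part of these cell types in the values below was not tested, and in bulk RNA fewer cells of a type and less RNA per cell cannot be told apart.

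Promoter sequences were at hand for 7 of the 10 genes, as windows of 250 bases before and 50 bases after the RefSeq start (GRCm38.p6). None was at hand for Cxcl16, Ccl2 and Ccl7, so these genes were not searched. The 7 windows were searched on both strands for the NF-kB consensus and for the AP-1 motif TGANTCA. They were also searched for the core of the interferon-stimulated response element, a pair of GAAA blocks with a gap of any 2 bases. The NF-kB consensus was found in 5 of the 7, those of Cxcl1, Cxcl2, Cxcl10, Csf1 and Il6, and in 4.51% of the 32851 promoter windows of the same length. The AP-1 motif was found in 3, those of Cxcl10, Il6 and Lif, against 7.81% of all windows, and the interferon element in Cxcl10 alone, against 3.44% of all windows. A match describes letters and does not show that a factor binds there. The 4 windows below are shown because Cxcl1 and Cxcl2 are neighbours that carry the same NF-kB match but differed in the size of their rise, Cxcl10 holds all 3 motifs, and Csf1 holds the NF-kB match but fell. Capitals mark the matches, and the sequences run 5′ to 3′ on the strand of the gene.
Cxcl1 (chr5:90890995-90891294, plus strand): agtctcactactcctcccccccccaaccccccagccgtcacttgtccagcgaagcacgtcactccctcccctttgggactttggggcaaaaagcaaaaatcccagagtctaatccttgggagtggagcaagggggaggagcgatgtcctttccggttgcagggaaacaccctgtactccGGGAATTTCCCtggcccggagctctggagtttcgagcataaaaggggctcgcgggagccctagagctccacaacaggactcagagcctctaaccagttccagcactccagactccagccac
Cxcl2 (chr5:90903649-90903948, plus strand): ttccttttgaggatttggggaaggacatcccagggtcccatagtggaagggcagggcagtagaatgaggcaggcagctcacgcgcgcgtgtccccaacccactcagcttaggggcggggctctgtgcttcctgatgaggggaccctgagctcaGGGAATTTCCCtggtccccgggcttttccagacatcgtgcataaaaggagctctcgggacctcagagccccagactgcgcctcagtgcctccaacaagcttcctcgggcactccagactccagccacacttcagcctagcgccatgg
Cxcl10 (chr5:92348840-92349139, minus strand): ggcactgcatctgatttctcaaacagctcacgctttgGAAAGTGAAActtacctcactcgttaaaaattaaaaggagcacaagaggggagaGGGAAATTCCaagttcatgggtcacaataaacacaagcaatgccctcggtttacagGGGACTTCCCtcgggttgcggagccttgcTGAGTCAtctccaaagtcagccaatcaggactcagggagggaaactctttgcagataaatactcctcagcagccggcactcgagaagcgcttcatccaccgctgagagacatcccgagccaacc
Csf1 (chr3:107760420-107760719, minus strand): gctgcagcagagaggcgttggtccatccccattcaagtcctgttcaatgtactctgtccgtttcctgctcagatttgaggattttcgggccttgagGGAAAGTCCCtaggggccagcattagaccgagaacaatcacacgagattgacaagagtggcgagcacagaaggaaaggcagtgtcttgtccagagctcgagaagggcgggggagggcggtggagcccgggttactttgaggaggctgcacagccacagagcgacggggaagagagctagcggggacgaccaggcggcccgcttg
Counted from the RefSeq start, the NF-kB match GGGAATTTCC lies at bases -71 to -62 in Cxcl1 and at -97 to -88 in Cxcl2, and in both it overlaps a match on the other strand. In Cxcl10 the interferon element GAAAGTGAAA lies at -213 to -204, NF-kB matches lie at -159 to -150 and -103 to -94, and the AP-1 match TGAGTCA lies at -74 to -68. The single match in Csf1 lies on the opposite strand at -154 to -145.

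Of the 9 tested genes, 6 were higher with AngII, 2 were lower and 1 was not called, by edgeR's quasi-likelihood test with adjusted p below 0.05 over all tested genes. Across all 12277 tested genes, 29.0% were called higher, 28.6% lower and 57.6% in either direction, so a call alone sets a gene little apart in these samples. The neutrophil and monocyte chemokines Cxcl1, Cxcl2, Ccl2 and Ccl7, the T cell chemokine Cxcl10 and the cytokine Il6 rose, while Csf1 and Lif fell. In the same 8 genes no AngII sample overlapped the saline samples, 6 with AngII higher and 2 with AngII lower. Of all tested genes, 31.3% were so separated with AngII higher and 31.4% with AngII lower, 62.7% together. The median log2 fold change of the 9 was 0.68, against 0.00 over all tested genes, and their median absolute log2 fold change was 0.68, against 0.19 over all tested genes. AngII replicate 1 was the lowest of the 3 AngII samples for all 9 tested genes, as it was for 37.8% of all tested genes. Without it the 6 genes that rose kept their calls, with log2 fold changes of 0.38 for Cxcl1, 1.45 for Cxcl2, 0.78 for Cxcl10, 0.84 for Ccl2, 1.13 for Ccl7 and 1.23 for Il6.

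**Figure D1:**
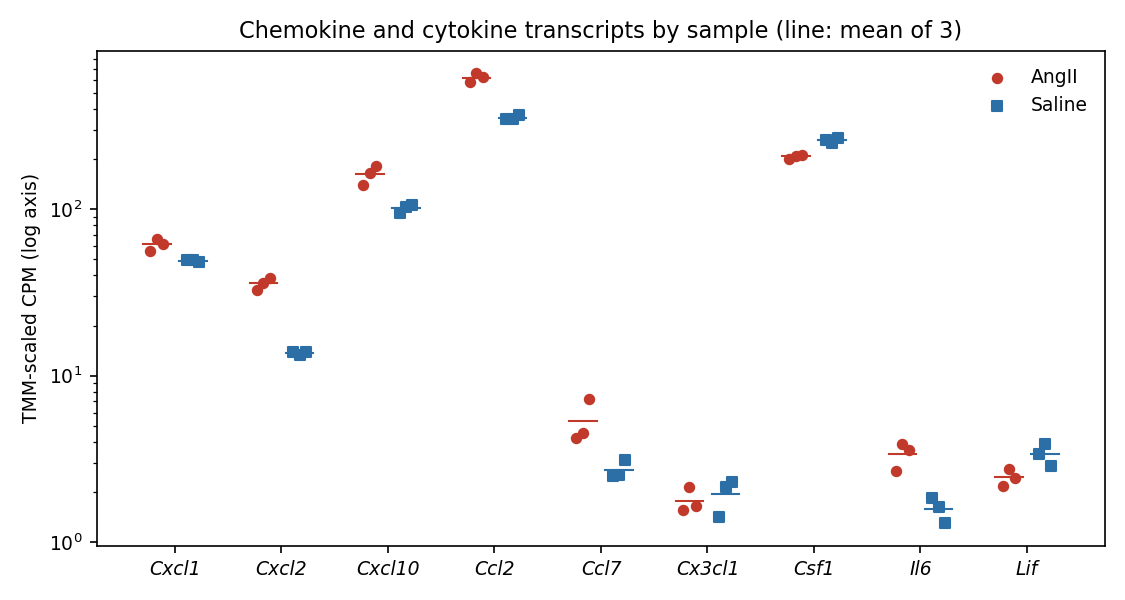
Level of each tested chemokine and cytokine gene in TMM-scaled CPM on a log axis, with 1 point per sample, AngII in red circles and saline in blue squares, and the mean of 3 as a line. Cxcl2 sits at 32.6 to 38.5 CPM in AngII samples and 13.4 to 13.8 CPM in saline samples, while the points of Cx3cl1 overlap; Cxcl16, near 0 counts, is not drawn.

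Cxcl2 and Cxcl1 encode the mouse CXCR2 ligands MIP-2 and KC, and the genes lie 10.8 kb apart on chromosome 5 with no protein-coding gene between them. Cxcl2 (chromosome 5, 90903871 to 90905938, GRCm38) had 32.6, 36.3 and 38.5 CPM in AngII replicates 1 to 3, against 13.8, 13.4 and 13.8 CPM in saline replicates 1 to 3. Every AngII sample was more than 2 times every saline sample. The level was 2.62-fold higher with AngII (log2 fold change 1.39 ± 0.0672, SE; edgeR adjusted p = 5.2e-12), and 1.89% of tested genes had a larger absolute change. Cxcl1 (chromosome 5, 90891241 to 90893115) had 56.1, 66.2 and 62.0 CPM in AngII samples, against 49.6, 49.5 and 48.3 CPM in saline samples. The groups did not overlap, but the saline samples lay close together and AngII replicate 1 stood nearest to them. Cxcl1 was 1.25-fold higher (log2 fold change 0.32 ± 0.0505, SE; edgeR adjusted p = 2.5e-05).

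The same difference can be given as a ratio within each sample, which restates both fold changes and is no separate evidence. Cxcl2 had 0.582, 0.548 and 0.621 counts per count of Cxcl1 in AngII samples, against 0.279, 0.270 and 0.286 in saline samples. The ratio was 2.09 times as large with AngII, a difference of 1.07 on the log2 scale, and the groups were apart (exact permutation test, two-sided p = 0.10, the smallest that 3 against 3 samples can give; 0.15 adjusted over the 3 ratios computed). The ratios were chosen after the values were seen. Cxcl1 and Cxcl2 are close relatives, and how the counting treated reads common to both is unknown.

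Ccl2 and Ccl7 encode the monocyte chemokines MCP-1 and MCP-3, which bind CCR2, and are neighbours 8.3 kb apart on chromosome 11 with no protein-coding gene between them. Ccl2 (chromosome 11, 82035571 to 82037453) had 581, 657 and 619 CPM in AngII samples, against 350.2, 346 and 371 CPM in saline samples. The lowest AngII sample lay far above the highest saline sample. Ccl2 was 1.74-fold higher (log2 fold change 0.80 ± 0.0405, SE; edgeR adjusted p = 9.5e-12). It made up 56.9%, 57.3% and 54.8% of the summed CPM of the 10 genes in AngII samples and 45.0%, 44.8% and 45.5% in saline samples. That total was 1022, 1146 and 1131 CPM in AngII samples, against 778, 774 and 815 CPM in saline samples. Shares and total are of counts not scaled to transcript length, which was 0.813 kb for Ccl2 and 4.176 kb for Csf1.

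Ccl7 (chromosome 11, 82045712 to 82047525), with 101, 102 and 182 counts in AngII samples against 53, 56 and 72 counts in saline samples, was expressed far less. Its levels were 4.24, 4.54 and 7.28 CPM in AngII samples, against 2.49, 2.54 and 3.12 CPM in saline samples. AngII replicate 3 stood well above the other two AngII samples, and saline replicate 3 was the highest of its group. Ccl7 was 1.97-fold higher (log2 fold change 0.98 ± 0.187, SE; edgeR adjusted p = 1.9e-04), and without AngII replicate 3 the log2 fold change was 0.68. There were 137, 145 and 85.0 counts of Ccl2 per count of Ccl7 in AngII samples and 140.4, 136 and 119 in saline samples. These ratios overlapped, and their difference of -0.14 on the log2 scale was within the spread between samples (exact permutation test, two-sided p = 0.90; 0.90 adjusted over the 3 ratios). Ccl2 and Ccl7 are also relatives, with the same limit.

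Cxcl10 (chromosome 5, 92346638 to 92348889, minus strand) encodes IP-10, the interferon-induced ligand of CXCR3, and was the second most abundant of the 10 genes per length. It had 139.7, 165 and 183 CPM in AngII samples, against 95.3, 103 and 106 CPM in saline samples. The groups did not overlap, and the AngII samples were spread more widely (SD 21.9 CPM) than the saline samples (SD 5.45 CPM). Cxcl10 was 1.60-fold higher (log2 fold change 0.68 ± 0.0667, SE; edgeR adjusted p = 7.2e-08). Its exons share 133 bases with Art3 on the opposite strand, which had at most 11 counts in AngII samples and 9 in saline samples, against at least 3326 and 2024 counts of Cxcl10.

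CX3CL1 and CXCL16 are the chemokines made as membrane-anchored proteins, which hold leukocytes at the cell surface and are released by the proteases ADAM10 and ADAM17. Cx3cl1 (chromosome 8, 94772009 to 94782427) had 1.55, 2.14 and 1.64 CPM in AngII samples, against 1.41, 2.13 and 2.30 CPM in saline samples. The groups overlapped over most of their range. The log2 fold change was -0.14 with a 95% interval of -0.58 to 0.29 (edgeR adjusted p = 0.57), so at 30 to 53 counts per sample any ratio of AngII to saline between 0.668 and 1.23 lay within the interval. Cxcl16 (chromosome 11, 70453983 to 70459984) had 0, 1 and 1 counts in AngII samples and 0, 0 and 1 counts in saline samples. A count of 0 allows up to 3 counts, or 0.120 to 0.133 CPM in AngII samples and 0.130 to 0.141 CPM in saline samples, for counting error only. Cxcl16 was below the filter, no fold is given, and its exons share 552 bases with Zmynd15 on the opposite strand, itself at no more than 3 counts in any sample.

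Csf1 (chromosome 3, 107741048 to 107760469) encodes macrophage colony-stimulating factor. It had 201.5, 209 and 213 CPM in AngII samples, against 259.9, 251.3 and 266 CPM in saline samples. All AngII samples lay below all saline samples, with a narrow spread in each group. Csf1 was 1.25-fold lower (log2 fold change -0.32 ± 0.0329, SE; edgeR adjusted p = 1.4e-07), the same size as the rise of Cxcl1. Its direction was thus opposite to that of the monocyte chemokine genes Ccl2 and Ccl7. Its promoter window holds the NF-kB consensus, as those of Cxcl1, Cxcl2, Cxcl10 and Il6 do, which rose. No window was at hand for Ccl2 and Ccl7.

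Il6 and Lif, the gp130 cytokine genes of the described set, went opposite ways at low levels. Outside the set, the gp130 cytokine genes Clcf1 (log2 fold change 0.36) and Cntf (0.68, edgeR adjusted p = 0.029) were called higher. Ctf1 (0.16) was not called. Cntf and Ctf1 were picked with their values known and were not followed over the alternatives. Il6 (chromosome 5, 30013114 to 30019981), the main inflammatory cytokine of this family, had 64, 88 and 89 counts in AngII samples, against 39, 36 and 30 counts in saline samples. That was 2.69, 3.91 and 3.56 CPM in AngII samples and 1.83, 1.63 and 1.30 CPM in saline samples. The groups were apart, and Il6 was 2.13-fold higher (log2 fold change 1.09 ± 0.186, SE; edgeR adjusted p = 6e-05). Lif (chromosome 11, 4257557 to 4272514), named for leukaemia inhibitory factor, had 52, 62 and 61 counts in AngII samples, against 72, 86 and 66 counts in saline samples, or 2.18, 2.76 and 2.44 CPM in AngII samples and 3.39, 3.90 and 2.86 CPM in saline samples. The highest AngII sample and the lowest saline sample nearly met. Lif was 1.37-fold lower (log2 fold change -0.46 ± 0.158, SE; edgeR adjusted p = 0.019), a call lost in DESeq2 (adjusted p = 0.066), without AngII replicate 1 (0.062) and without saline replicate 2 (0.12), where its adjusted p over all alternatives ran between 0.009 and 0.12. There were 1.23, 1.42 and 1.46 counts of Il6 per count of Lif in AngII samples, against 0.542, 0.419 and 0.455 in saline samples, so Il6 was the more counted gene in every AngII sample and Lif in every saline sample. The ratio was 2.91 times as large with AngII (exact permutation test, two-sided p = 0.10, the smallest possible, and 0.15 adjusted over the 3 ratios). It restates both fold changes and is no separate evidence. Counts are not scaled to length, and per kilobase of transcript the saline samples of Lif and Il6 overlapped.

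**Figure D2:**
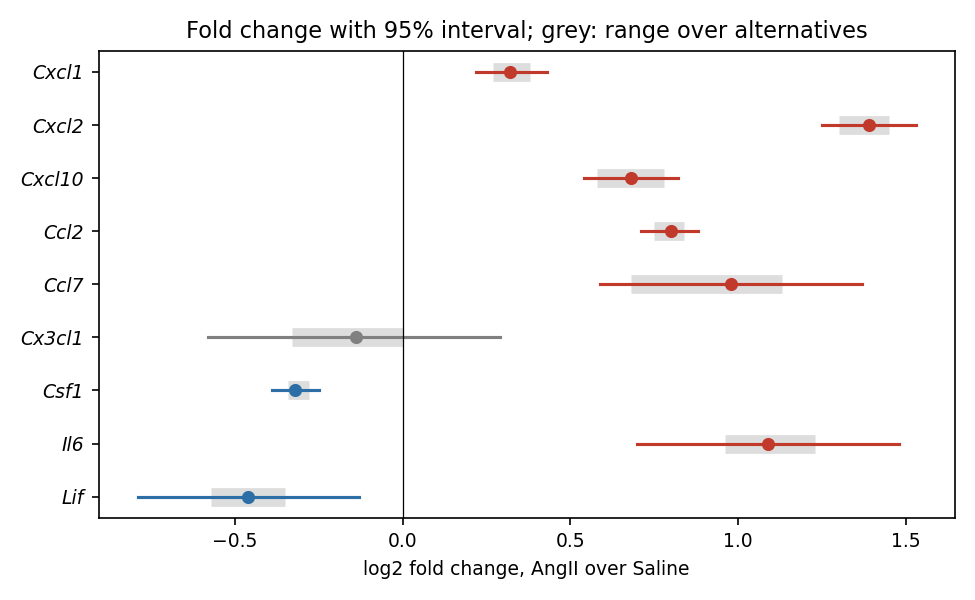
Log2 fold change of AngII over saline for the 9 tested genes (points) with its 95% interval from edgeR (lines), red for genes called higher, blue for genes called lower and grey for Cx3cl1, which was not called. Grey bands give the range over the alternative analyses; the band of Ccl7 reaches 0.68 at its low end, and the band of Lif runs between -0.57 and -0.35.

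**Figure D3:**
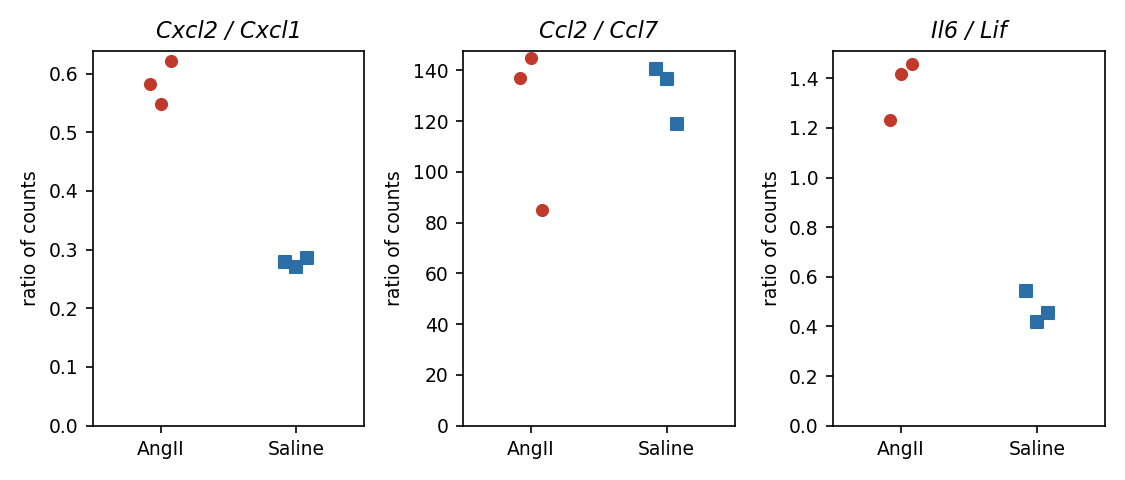
Ratio of counts within each sample for Cxcl2 over Cxcl1, Ccl2 over Ccl7 and Il6 over Lif, on linear axes from 0, with AngII in red circles and saline in blue squares and 1 point per sample. The ratios of Cxcl2 over Cxcl1 and of Il6 over Lif lie apart between the groups, at 0.548 to 0.621 in AngII samples against 0.270 to 0.286 in saline samples for Cxcl2 over Cxcl1, while those of Ccl2 over Ccl7 overlap.

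Levels of different genes were set side by side as CPM per kilobase of the longest annotated transcript. In AngII samples the order was Ccl2 (761 ± 46.4 CPM per kilobase, SD, n = 3), Cxcl10 (120.2 ± 16.2), Cxcl1 (64.5 ± 5.34), Csf1 (49.7 ± 1.36), Cxcl2 (19.3 ± 1.60), Ccl7 (6.68 ± 2.09), Il6 (1.45 ± 0.270), Lif (0.611 ± 0.0714), Cx3cl1 (0.536 ± 0.0946) and Cxcl16. In saline samples Ccl2 (438 ± 16.2 CPM per kilobase) and Cxcl10 (74.9 ± 4.03) also led. There Csf1 (62.1 ± 1.80) lay above Cxcl1 (51.6 ± 0.781), and Lif (0.840 ± 0.129) above Il6 (0.678 ± 0.115). Samples of neighbours in this order overlapped for Lif and Cx3cl1 in AngII samples, and for Lif and Il6 and for Il6 and Cx3cl1 in saline samples. All other neighbours were apart in every sample.

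Receptors of these ligands were mostly at or near the limit of counting. Of 11 receptor genes listed, 5 were tested. Ccr2, the receptor of Ccl2 and Ccl7, had 0 counts in every AngII sample and 0, 0 and 1 in saline samples, and Csf1r, the receptor of Csf1, had 1 count in each AngII sample and 0, 1 and 0 in saline samples. Il6ra, the subunit that binds IL-6, had 32.6 ± 0.741 CPM in AngII samples and 41.6 ± 1.56 CPM in saline samples (n = 3) with a log2 fold change of -0.35, a fall that passed (edgeR adjusted p = 5.7e-06). Il6st, which encodes gp130, was at 438 ± 0.917 CPM in AngII samples and 430.1 ± 5.20 CPM in saline samples (log2 fold change 0.03, 95% interval -0.03 to 0.09). Lifr was at 44.9 ± 1.10 CPM in AngII samples and 48.4 ± 3.79 CPM in saline samples (edgeR adjusted p = 0.081), and passed, lower, without AngII replicate 3 (0.048), without saline replicate 3 (0.017) and after correction for GC content and length (0.0048). Cxcr2, the receptor of Cxcl1 and Cxcl2, was at 4.03 ± 0.201 CPM in AngII samples and 4.35 ± 0.970 CPM in saline samples and was not called (edgeR adjusted p = 0.56). Ackr2, a scavenger receptor that takes up inflammatory CC chemokines, was at 1.26 ± 0.392 CPM in AngII samples and 0.570 ± 0.0914 CPM in saline samples and rose, with a log2 fold change of 1.12 (edgeR adjusted p = 0.0034).

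Among other chemokine genes, 21 of 31 were listed and 6 tested, of which 2 rose and 1 fell (median log2 fold change -0.00, against 0.00 over all tested genes). For the counts in this paragraph, the shares over all tested genes were 29.0% called higher and 28.6% lower. Ccl4, which encodes the chemokine MIP-1 beta, had 14.2, 16.5 and 17.8 CPM in AngII samples, against 7.15, 8.44 and 9.62 CPM in saline samples, and rose, with a log2 fold change of 0.94 (edgeR adjusted p = 2.7e-07). The stromal chemokine gene Cxcl12 rose by 0.38. Ccl5, which encodes the chemokine RANTES, had 92.3, 94.8 and 96.6 CPM in AngII samples, against 103, 101.5 and 109.9 CPM in saline samples, and fell by 0.15, a call not kept after correction for GC content and length (log2 fold change -0.03, edgeR adjusted p = 0.47). Of 13 tested cytokine genes outside the described set, 8 rose and 1 fell (median log2 fold change 0.36). The stem cell factor gene Kitl (0.51), Il1a (2.21), Clcf1 (0.36), which like Il6 and Lif encodes a gp130 cytokine, and Il16 (0.27) rose, while Il18 fell by 1.28. Il1a, which encodes interleukin-1 alpha, rested on 20, 27 and 34 counts in AngII samples and 4, 8 and 4 counts in saline samples.

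The other colony-stimulating factor genes and the second ligand of the CSF1 receptor were chosen after their values were seen, to set beside Csf1. Csf3 had 40, 46 and 38 counts in AngII samples, against 11, 26 and 14 counts in saline samples, and rose, with a log2 fold change of 1.17 (edgeR adjusted p = 0.0012). Csf2 had 15, 21 and 14 counts in AngII samples, against 3, 9 and 7 counts in saline samples (log2 fold change 1.28, edgeR adjusted p = 0.011), a call lost without AngII replicate 2 (0.069) and without saline replicate 1 (0.064). Il34, the second ligand, had 14, 13 and 18 counts in AngII samples, against 9, 4 and 5 counts in saline samples (log2 fold change 1.20, edgeR adjusted p = 0.015), a call lost in DESeq2 (0.063) and without AngII replicate 3 (0.054), saline replicate 2 (0.067) or saline replicate 3 (0.060). These genes were thus higher where the far more abundant Csf1 was lower.

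Genes that act on the expression or release of these factors went both ways, as did all tested genes, 29.0% of them called higher and 28.6% lower. Of 29 NF-kB signalling genes tested, 10 rose, 9 fell and 10 were not called (median log2 fold change -0.00), which is near those shares. Nfkbia (0.51), which encodes the feedback inhibitor of NF-kB, Nfkbiz (0.38), which encodes a nuclear protein that helps NF-kB at targets such as Il6, the interleukin-1 receptor subunit gene Il1rap (0.47) and the kinase gene Irak1 (0.32) rose. The adaptor gene Myd88 (-0.51), the kinase genes Map3k7 (-0.35) and Chuk (-0.26) and the receptor gene Tnfrsf1a (-0.26) fell. Of 13 tested genes of the interferon input to Cxcl10, 6 rose and 2 fell (median 0.13). Isg15 (0.44), Irf9 (0.29) and Ifnar1 (0.19) rose, while Ifngr2 fell by 0.40, and Ifnar2 by 0.11 with a call lost in DESeq2 (adjusted p = 0.076) and without AngII replicate 2 (0.050), AngII replicate 3 (0.056), saline replicate 2 (0.086) or saline replicate 3 (0.12).

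Of 14 genes of JAK-STAT3 signalling, the route by which IL-6 and LIF act, 1 rose and 9 fell (median log2 fold change -0.19). Over all tested genes, 29.0% were called higher and 28.6% lower. The list holds genes that carry the signal and genes that inhibit it, so these counts do not give a direction of the route. Pim1, a kinase gene, rose by 0.43, while Stat3 (-0.32), Osmr (-0.28), Jak2 (-0.18) and Pias3 (-0.61), which encodes an inhibitor of STAT3, fell. Of 14 genes of cytokine mRNA stability, 4 rose and 5 fell (median -0.04), near the shares over all tested genes. Arid5a, whose protein stabilises Il6 mRNA, rose by 0.45, and Hnrnpd (0.20), Elavl1 (0.18) and Zfp36l2 (0.13) rose, while the kinase gene Mapkapk2 (-0.22), Ybx1 (-0.14), Zfp36l1 (-0.13) and Zc3h12c (-0.15) fell, the last with a call lost without saline replicate 1 (edgeR adjusted p = 0.053). Of 11 genes of ectodomain shedding, 3 rose and 7 fell (median -0.33). Adam17 was at 221 ± 5.43 CPM in AngII samples and 189.9 ± 3.68 CPM in saline samples (log2 fold change 0.22), and Timp3, which encodes an inhibitor of ADAM17, was at 188 ± 8.14 CPM in AngII samples and 329.5 ± 7.09 CPM in saline samples (-0.81). Frmd8 (-0.66) and Rhbdf2 (-0.60), whose proteins act with ADAM17, and Tspan5 (-0.42), whose protein acts with ADAM10, fell. Adam10 (0.13) and Tspan14 (0.10) rose, with calls not kept after correction for GC content and length (edgeR adjusted p = 0.15 and 0.070), and Tspan14 also lost its call in DESeq2 (0.089) and without AngII replicate 1 (0.066), AngII replicate 2 (0.090) or saline replicate 1 (0.13).

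**Figure D4:**
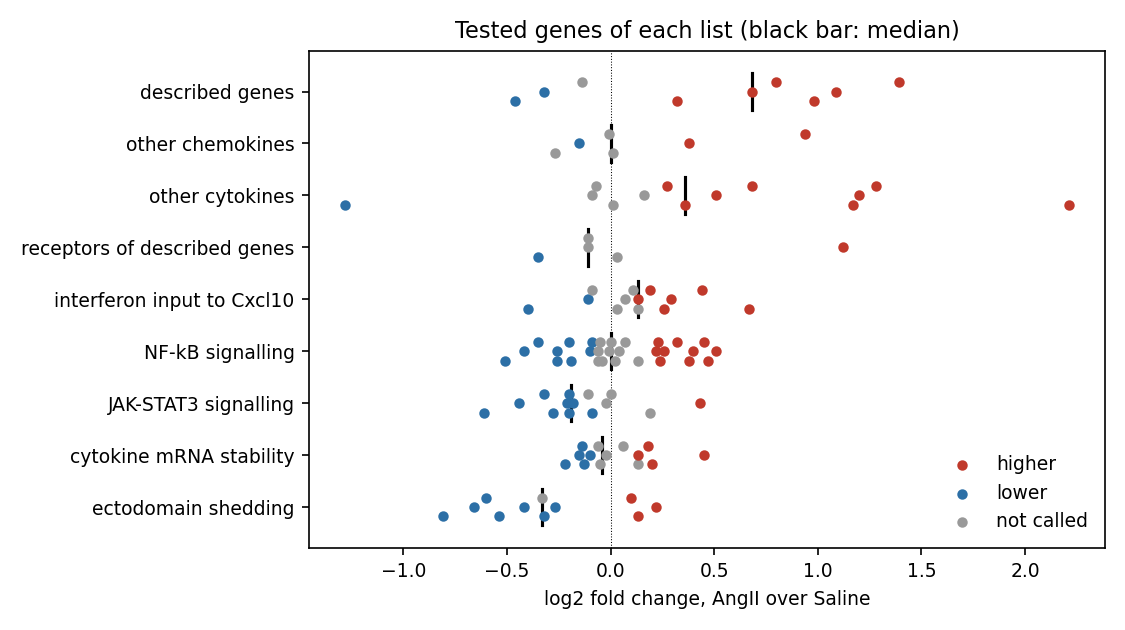
Log2 fold change of AngII over saline for the tested genes of the described set and of 8 related lists, 1 point per gene, red for genes called higher, blue for genes called lower and grey for genes not called, with the median of each list as a black bar. The described genes have a median of 0.68, other cytokines 0.36, NF-kB signalling -0.00, JAK-STAT3 signalling -0.19 and ectodomain shedding -0.33.

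The genes whose profile over the 6 samples lay closest to that of Cxcl2, among 10083 genes of at least 5 CPM, were Rcan1, Asns and Herpud1, with root mean square differences of 0.0577, 0.0626 and 0.0677 on the log2 scale. Rcan1, a regulator of calcineurin, was at 192 ± 18.4 CPM in AngII samples and 73.6 ± 5.19 CPM in saline samples (n = 3), and its log2 fold change of 1.38 was near the 1.39 of Cxcl2. Asns, the asparagine synthetase, rose by 1.42 and Herpud1, a gene of protein breakdown at the endoplasmic reticulum, by 1.26. Closest to Lif were Map3k14, which encodes the NF-kB-inducing kinase, Mplkip and Scrn3, with differences of 0.0966, 0.112 and 0.113 and log2 fold changes of -0.41, -0.29 and -0.35. With 6 samples in 2 groups, this likeness rests mostly on the size of the group difference. The call of Mplkip was lost without saline replicate 2 (edgeR adjusted p = 0.056).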

How the data were processed

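RNA was sequenced from 6 samples of primary mouse aortic endothelial cells, 3 per group, in dUTP libraries made from bead-purified messenger RNA, per the labels' protocols. The authors deposited 1 table of expected counts for 17067 gene symbols, not scaled to library size, in which 83.0% of values were exactly whole (tolerance 0). HISAT2 and the mouse build mm10 were used, per the submitters' processing notes. The quantifier, annotation, strand setting and filters are not given in the sources used here. Values of close relatives and of overlapping genes are therefore uncertain. Counts were rounded to whole numbers, and 0 columns were left unmapped.

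All genes were fitted in edgeR 4.0.16 (R 4.3.3) with TMM scaling (trimmed mean of M-values), filterByExpr (minimum count 10, minimum total 15) and the quasi-likelihood F-test. Benjamini-Hochberg adjustment ran over the 12277 genes tested, with a threshold of 0.05. A standard error is the log2 fold change over the square root of its F statistic, and intervals are 95%. The script was tested on simulated data. The alternatives tried were library totals or median-of-ratios scaling, other filters, DESeq2 1.42.0, limma-voom (limma 3.58.1), the replicate number as a block, a correction for GC content and length of transcripts (splines per sample), and each sample left out. All 6 replicate pairs differed beyond sampling noise (chi-square per degree of freedom 2.39 to 5.86). The labels do not say that replicates came from separate animals, and the spread that p-values rest on may be technical.

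Gene coordinates, exons and lengths were those of GENCODE M21 (GRCm38, the same assembly as mm10), and promoters came from RefSeq on GRCm38.p6. The genes described, the gene lists, the markers and the rule for naming genes were chosen with earlier results of these data known. From each list up to 4 genes that rose and 4 that fell, by smallest p, were named, with every tested receptor. For the strongest rise and fall, the 3 genes of at least 5 CPM (counts per 1000000) closest in log2 profile were named. The text says where another gene was picked with its values known. No set test was run. Some genes that this rule selects are not reported here.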

Additional observations from a re-analysis of the deposited data

How the results depend on the processing

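Over 14 alternatives, the log2 fold changes of Cxcl1, Cxcl2, Cxcl10, Ccl2, Ccl7, Csf1 and Il6 kept their direction and their call wherever the gene was in the fit, and Cx3cl1 was called in none. Of 122 values compared for the 9 genes, 119 stayed on their side of the threshold, 3 did not (all of them Lif, above) and 0 reversed. The number called lower was 1, not 2, in DESeq2 and with at least 5 CPM in at least 3 samples, a filter that kept 5 of the genes, and ran between 1 and 2 with each sample left out. The number called higher was 4 under that filter and 6 in all others. With the replicate number as a block 6 rose and 2 fell, as without it. Deviations of same-numbered samples from their group means had correlations of 0.14, 0.03 and -0.08. With 3 samples per group these values cannot exclude that the numbers pair samples, and the labels do not say. Of the 56 other genes that the naming rule took or that were added to it, over 777 comparisons 20 lost a call, 3 (all Lifr) gained one and 0 reversed, and list counts stayed within 1.5 times in 210 of 224. The exceptions were the genes lower among other chemokines (2, not 1, with no filter beyond 1 count, and 0 with the GC content and length trend removed), higher (3, not 8) and lower (0, not 1) among other cytokines and higher among receptors (0, not 1) at 5 CPM, and lower among receptors (2, not 1) or interferon input (1, not 2), and higher in shedding (1, not 3), where the calls named above changed. Without the filter, 42.9% of 17053 genes were called. The causes were not tested. Depth limits Cx3cl1, Il6, Lif and Ccl7, at 30 to 182 counts per sample, and leaves Cxcl16 without a value.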
